A study of Mus musculus with 6 samples.

Results

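The 10 genes Nlrp5, Nlrp4f, Nlrp14, Padi6, Ooep, Khdc3, Tle6, Zar1, Npm2 and Oog1 are transcribed in the growing oocyte, and most of them are known as maternal-effect genes, whose products the embryo inherits from the egg. They were taken by symbol from the deposited expression table, which lists 18280 genes, and all 10 were present. The libraries came from whole ovaries of 3 Dennd1a transgenic mice (genotype Dennd1aTG, here TG) and 3 wild-type mice (WT). All 6 animals had been injected with PMSG, a gonadotropin with FSH activity, 44 h earlier. The study asked how the transgene affects the response of the ovary to FSH. The promoter and cell type that drive the transgene, the strain and the age of the animals are not given in the sources used here. An ovary holds few oocytes among many granulosa, theca and stromal cells, so a bulk library cannot tell fewer oocytes from less RNA per oocyte.

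NLRP5, OOEP, KHDC3 and TLE6 are parts of the subcortical maternal complex, a protein assembly under the egg membrane that mouse embryos need for their first divisions. NLRP4F is a further component, and PADI6, a peptidylarginine deiminase relative, is needed for the cytoplasmic lattices in which the oocyte stores protein. ZAR1 binds and stores maternal mRNA, NPM2 is a histone chaperone that organises chromatin and nucleoli in egg and zygote, NLRP14 is a germ-cell member of the NLRP family, and OOG1 belongs to the leucine-rich PRAME-like family. These transcripts accumulate during oocyte growth and are kept for use after fertilisation.

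Library totals ran from 17075484 to 18516171 estimated counts. Dennd1a measured between 570 and 588 CPM (counts scaled to the normalised library size) in the TG libraries and between 39.5 and 49.3 CPM in the WT libraries, so each library carried the level its label calls for. Oocyte transcripts were detected in every library: 8 reference oocyte genes, the zona pellucida genes Zp1, Zp2 and Zp3, the growth factor genes Gdf9 and Bmp15, and H1foo, Oosp1 and Oosp2, summed to between 107 and 212 CPM. The ninth reference gene in the table, Figla, a transcription factor of the oocyte, had 42 counts over the 6 libraries and was not tested. Granulosa markers (8 of 8 tested) summed to between 5593 and 6974 CPM. Markers of tissue around the ovary were uneven, and TG replicate 2 and WT replicate 3 each stood apart in some of them. The oviduct gene Ovgp1 measured 40.9 CPM in WT replicate 3 and at most 5.99 CPM elsewhere. The other oviduct marker tested, the epithelial keratin gene Krt7, was instead lowest in WT replicate 3, at 7.99 CPM against 8.62 to 26.9 CPM elsewhere. The adipocyte gene Cfd measured 86.8 CPM in TG replicate 2 and at most 9.45 CPM elsewhere, the latter in WT replicate 3. In FPKM, explained below, Cfd was 12.4 in WT replicate 3. It was 113 in TG replicate 2 and between 0.5 and 2.01 in the remaining libraries. Fabp4 and the untested Adipoq were also far higher in TG replicate 2, while Plin1 was close to the other TG libraries. Adipoq was second highest in WT replicate 3 (1.43 FPKM, against 0.1 to 0.43), where Fabp4 and Plin1 did not stand apart. The adipocyte markers tested summed to 156 CPM in TG replicate 2 and at most 32.1 CPM elsewhere.

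On the mouse assembly GRCm38.p6 the genes lie on 8 chromosomes, with Nlrp5 (23385889 to 23441923) and Nlrp14 (107113455 to 107198103) on chromosome 7 and Khdc3 (73101381 to 73106631) and Ooep (78376903 to 78378588) on chromosome 9. Padi6 (chromosome 4, 140727355 to 140742643) lies within 200 kb of its paralogues Padi1, Padi2, Padi3 and Padi4, and Ooep within 200 kb of Dppa5a, Omt2a and Omt2b, which are also expressed in oocytes. Tle6 lies on chromosome 10 (81590904 to 81601185), Zar1 on chromosome 5 (72577113 to 72581361), Oog1 on chromosome 12 (87602665 to 87608845), Nlrp4f on chromosome 13 (65177111 to 65205716) and Npm2 on chromosome 14 (70647296 to 70661802). In GENCODE M21 the annotated Npm2 gene overlaps Xpo7 on the same strand, Khdc3 overlaps Gm20509 and Nlrp5 overlaps Gm25196. These overlaps are of whole gene spans, and shared exon bases, where reads may be assigned to either gene, were not looked for. Counts were whole numbers in 6 libraries for Khdc3 and Nlrp5 and in 4 for Npm2. Transcripts of the 10 genes were short: taking for each gene the transcript with the longest coding sequence, the median length was 2077 bases (3101 over 12994 tested genes). The 3′ untranslated region had a median of 212 bases (1054 over the same genes). A polyadenylation signal (AATAAA or ATTAAA) stood in the last 50 bases for 8 of 10 members, near the 78.5% of all these genes. A cytoplasmic polyadenylation element (TTTTAT or TTTTAAT), through which maturing oocytes are known to activate stored mRNA, stood in the last 100 bases for 2 of 10, Nlrp4f and Oog1, near the 19.2% of all.

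RefSeq start sites on GRCm38.p6 were at hand for 8 of the 10 genes and for 10 starts, and not for Nlrp14 and Npm2. The 250 bases before the start are shown for 3 genes in which they held no annotated exon, Padi6 (chr4:140742644-140742893, minus strand) and Nlrp5 (chr7:23385639-23385888, plus strand), which followed the shared pattern across libraries described below, and Oog1 (chr12:87602415-87602664, plus strand), which departed from it. Each is written 5′ to 3′ and ends at the base before the start. Capitals mark E-boxes, CANNTG, the motif bound by FIGLA and other basic helix-loop-helix factors, and in Nlrp5 also TAATTA, a motif bound by NOBOX and other homeodomain factors.
Padi6: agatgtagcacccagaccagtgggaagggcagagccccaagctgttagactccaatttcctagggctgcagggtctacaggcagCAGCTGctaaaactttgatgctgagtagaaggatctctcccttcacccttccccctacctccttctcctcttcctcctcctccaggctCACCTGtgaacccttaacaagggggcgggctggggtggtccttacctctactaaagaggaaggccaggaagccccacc
Nlrp5: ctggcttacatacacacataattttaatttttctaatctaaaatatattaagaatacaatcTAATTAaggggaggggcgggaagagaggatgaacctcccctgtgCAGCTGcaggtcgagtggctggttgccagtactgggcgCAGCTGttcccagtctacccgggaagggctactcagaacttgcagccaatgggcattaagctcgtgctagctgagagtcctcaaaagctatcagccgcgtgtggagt
Oog1: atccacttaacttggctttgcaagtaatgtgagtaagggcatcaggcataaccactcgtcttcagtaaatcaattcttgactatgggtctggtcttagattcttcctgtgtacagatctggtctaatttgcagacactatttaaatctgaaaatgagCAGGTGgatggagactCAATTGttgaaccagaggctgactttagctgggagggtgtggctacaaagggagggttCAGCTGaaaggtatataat
The motif CANNTG, searched on both strands, was found before 10 of 10 starts of these genes and before 66.2% of 32851 starts in the genome table. Its mean number was 2.40 per start in these genes and 1.16 in the table. Nlrp5 and Tle6 entered with more than 1 start each. The windows of Zar1, Khdc3, Ooep and Tle6 lay partly in exons of the same gene, and that of Nlrp4f wholly. The exon share over the genome table was not counted, so the 2 means may compare unlike sequence. TAATTG was found before 1 of 10 starts, that of Ooep (7.17% of the table), and TAATTA before 1 of 10, that of Nlrp5 shown here (4.84%). The matches describe these letters and are not evidence of binding.

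Per transcript length, Tle6 and Padi6 had the highest levels and Oog1 and Nlrp4f the lowest. Over the 6 libraries Tle6 measured 24.9 ± 4.33 FPKM (SD, n = 6; FPKM scales fragments by transcript length and library size) and Padi6 measured 23.0 ± 6.12 FPKM. Below them came Ooep at 9.81 ± 1.70, Npm2 at 9.01 ± 2.25, Nlrp14 at 8.87 ± 2.27, Zar1 at 6.76 ± 2.20 and Nlrp5 at 6.71 ± 1.60 FPKM. Khdc3 measured 2.90 ± 0.715, Nlrp4f 2.27 ± 0.532 and Oog1 2.01 ± 0.724 FPKM. The genes of the subcortical complex therefore spanned nearly this whole range of levels, from Tle6 at the top to Khdc3 and Nlrp4f near the bottom.

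The order was set from the mean FPKM of these same 6 libraries, so the steps between neighbours are given as a description, with no test. In 4 of the 9 neighbouring pairs the upper gene was higher in 6 of 6 libraries. These were Padi6 over Ooep by 1.20 ± 0.21 (SD, n = 6) on the log2 FPKM scale, Nlrp14 over Zar1 by 0.42 ± 0.11, Nlrp5 over Khdc3 by 1.21 ± 0.12 and Khdc3 over Nlrp4f by 0.35 ± 0.14. In the other 5 pairs the mean log2 difference was smaller than its SD over libraries. Tle6 exceeded Padi6 by 0.14 ± 0.34, Ooep exceeded Npm2 by 0.14 ± 0.19, and Npm2 exceeded Nlrp14 by 0.03 ± 0.20. Zar1 and Nlrp5 differed by -0.02 ± 0.20, and Nlrp4f and Oog1 by 0.25 ± 0.58.

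**Figure D1:**
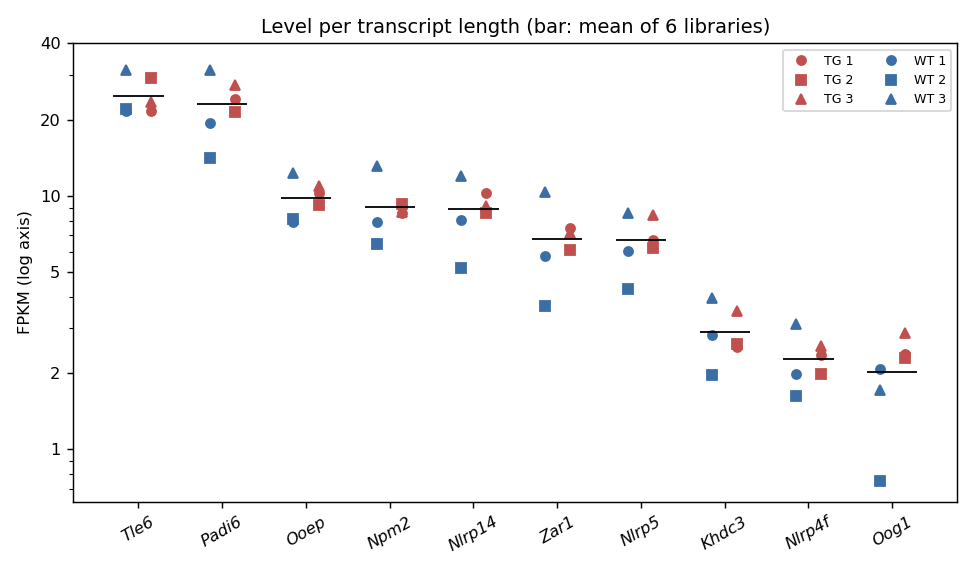
FPKM of each gene on a log axis, with 1 symbol per library (red TG, blue WT) and a bar at the mean of 6 libraries. Genes are ordered by that mean, from Tle6 at 24.9 to Oog1 at 2.01 FPKM, and WT replicate 2 is the lowest library for Padi6, Npm2, Nlrp14, Zar1, Nlrp5, Khdc3, Nlrp4f and Oog1.

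Between genotypes, the data do not show a change in any of the 10 genes, and the WT animals differed among themselves by more than the genotypes did. In edgeR 0 of the 10 passed an adjusted p of 0.05 over the 14124 genes tested, of which 149 (1.05%) passed, 5 of them higher (0.0354%) and 144 lower (1.02%) in TG. At an unadjusted p under 0.05 there were also 0 of 10 (4.08% of all genes). DESeq2 and limma-voom called 0 of them as well. Of the 10 log2 fold changes, TG over WT, 8 were above 0 (50.7% of all genes), with a median of 0.08 against 0.00 over all genes. The 95% intervals of the 10 genes lay between -0.65 and 1.46, and all included 0. With 3 animals each, the data are compatible with any difference inside a gene's interval, including none. The titles number the libraries within each genotype. Each library was taken as a separate animal, and on that reading the p-values measure the spread between animals.

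Among the genes of the subcortical complex, Nlrp5 measured 22.2, 21.1 and 28.1 CPM in the TG animals and 20.2, 14.4 and 28.7 CPM in the WT animals, here and below in the order of replicates 1 to 3. The TG libraries lay inside the WT range, and TG exceeded WT by 0.18 on the log2 scale (95% interval -0.33 to 0.68, SE 0.22). The adjusted p in edgeR was 0.9997, as for the other 9 genes. Nlrp4f measured 7.77, 6.72 and 8.52 CPM in TG and 6.63, 5.47 and 10.6 CPM in WT. The fitted log2 difference was 0.02 (95% interval -0.52 to 0.57). Again both extremes were WT libraries, replicate 2 at the low end and replicate 3 at the high end.

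Ooep, which carries a KH domain like that of Khdc3, measured 10.5, 9.71 and 11.4 CPM in TG and 8.14, 8.48 and 12.8 CPM in WT. Here WT replicate 1 was the lowest library, and the fitted log2 difference was 0.10 (95% interval -0.33 to 0.53). Khdc3 measured 3.66, 4.37 and 5.13 CPM in TG and 3.72, 2.74 and 6.34 CPM in WT. Its fitted log2 difference was 0.04 (95% interval -0.64 to 0.73), and both extremes were again WT libraries. Its counts were between 50 and 108 per library, for which counting error alone gives a coefficient of variation of about 11.5%.

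Tle6, a Groucho-type co-repressor relative that sits in the complex, measured 39.1, 54.2 and 43.0 CPM in TG and 39.6, 40.8 and 58.2 CPM in WT. It was highest in TG replicate 2 and WT replicate 3, the libraries with Cfd and Ovgp1, and the other 4 libraries lay between 39.1 and 43.0 CPM. Whether that tissue contributes to the Tle6 level was not tested. The fitted log2 difference was -0.02 (95% interval -0.40 to 0.36).

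Padi6 measured 51.3, 47.0 and 59.0 CPM in TG and 41.8, 30.7 and 68.5 CPM in WT. With 561 to 1166 counts per library it was, with Tle6, the most deeply counted of the genes, and the fitted log2 difference was 0.16 (95% interval -0.39 to 0.71). Nlrp14 measured 31.6, 26.9 and 28.4 CPM in TG and 25, 16.4 and 37.4 CPM in WT, with a fitted log2 difference of 0.14 (95% interval -0.40 to 0.69). For both genes the 3 TG libraries fell between the middle and the highest WT library.

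Zar1, the mRNA-storage gene, measured 7.99, 6.78 and 7.76 CPM in TG and 6.31, 4.05 and 11.3 CPM in WT. WT replicate 3 exceeded WT replicate 2 by 2.80-fold, the widest of the 10 genes, whereas the highest TG library exceeded the lowest by 1.18-fold. Its fitted log2 difference was 0.06 (95% interval -0.65 to 0.77). Npm2 measured 7.27, 8.16 and 7.41 CPM in TG and 6.84, 5.53 and 11.3 CPM in WT, with a fitted log2 difference of -0.05 (95% interval -0.61 to 0.51), and its counts were not whole numbers in 2 of the 6 libraries.

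Oog1 was the gene with the largest difference and the 1 gene of 10 whose groups did not overlap (8.25% of all tested genes had no overlap, and 3.21% with TG higher). It measured 3.88, 3.85 and 4.78 CPM in TG and 3.45, 1.26 and 2.88 CPM in WT, or 4.17 ± 0.529 against 2.53 ± 1.14 CPM (SD, n = 3 each). TG exceeded WT by 0.72 on the log2 scale (95% interval -0.02 to 1.46, SE 0.33), with an unadjusted p of 0.0559 and an adjusted p of 0.9997 in edgeR. WT replicate 2 was the lowest library at 1.26 CPM, and without it the value was 0.40. Oog1 had between 22.9 and 81.6 counts per library, none a whole number. RSEM divides reads between similar sequences, so the share of Oog1 within its family is uncertain. Its paralogues Oog2, Oog3, Oog4 and Pramef12 had fitted log2 differences of -0.08, -0.02, 0.01 and -0.13, with 0 of 5 tested members of that list called.

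**Figure D2:**
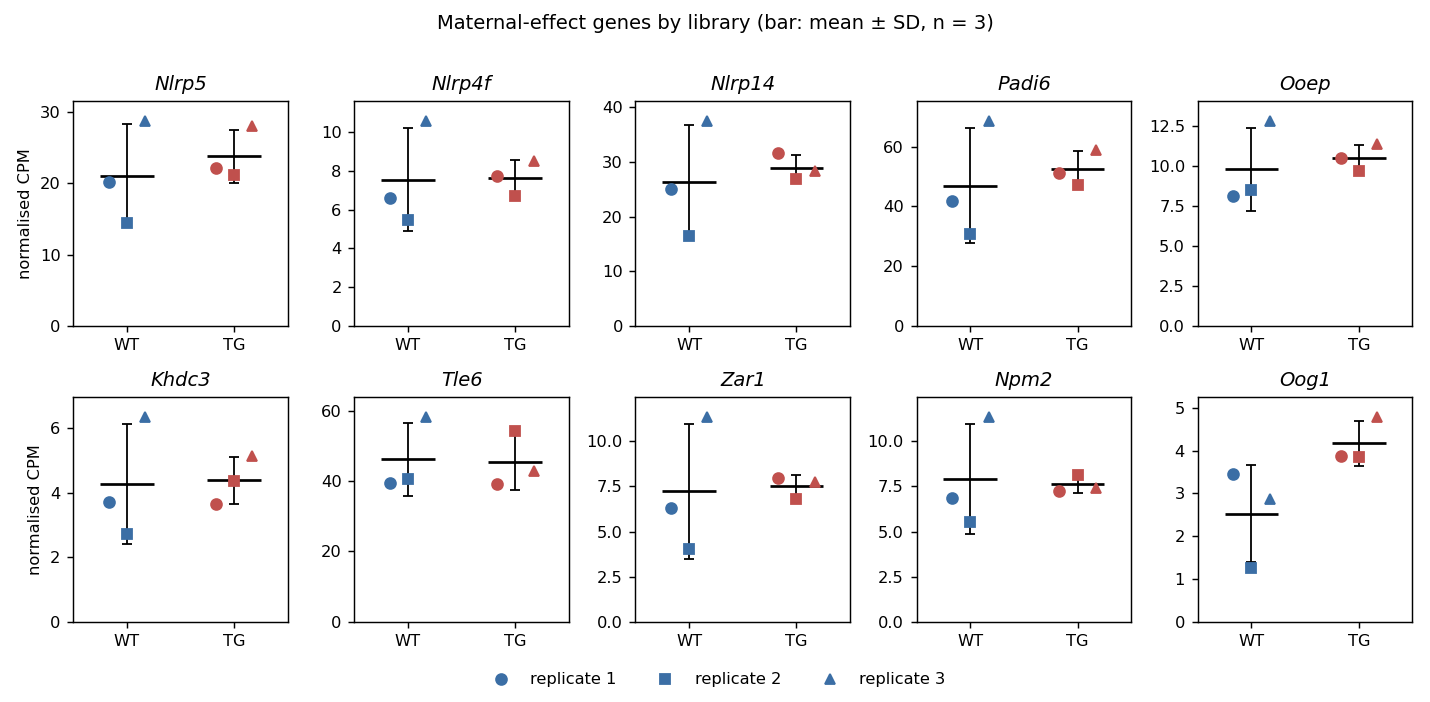
Normalised CPM of each gene in the 3 WT (blue) and 3 TG (red) libraries, with the mean and SD in black and a symbol for each replicate number. In 8 of 10 panels the TG libraries lie inside the WT range, while for Oog1 they lie between 3.85 and 4.78 CPM, above the WT libraries.

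The 10 genes differed more between WT animals than between TG animals. WT replicate 3 had the highest level of all 6 libraries for 9 of the 10 genes (21.7% of all tested genes) and WT replicate 2 the lowest for 8 (19.5%). Both held at once for 7 (6.31%). The 3 TG libraries lay inside the WT range for 8 of 10 (26.4%). WT replicate 3 exceeded WT replicate 2 by a median of 2.14-fold, and by at least 2-fold for 6 genes (3.15% of all genes, whose median ratio was 1.01). The ratio of the highest to the lowest library was larger in WT than in TG for 10 of 10 genes (57.5% of all genes) and ran from 1.47 to 2.80 in WT and from 1.12 to 1.4 in TG. The genes were measured in the same libraries and are not replicates of each other, and a difference in variance was not tested with 3 animals each.

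Summed over the 10 genes, the TG libraries held 185, 189 and 203 CPM and the WT libraries 162, 130 and 248 CPM. The reference oocyte genes gave the same order of WT libraries, with 137, 107 and 212 CPM, and 158, 145 and 158 CPM in TG, and 8 of 8 were highest in WT replicate 3 and lowest in WT replicate 2. Of 27 tested genes from a further list of oocyte genes, 23 were highest in WT replicate 3 and 21 were lowest in WT replicate 2. In 22 the TG libraries lay inside the WT range. That list also held Spin1, by far its most abundant gene at 45.9 FPKM, which was highest in WT replicate 1. Maternal-effect genes that many tissues use, such as Trim28, Dnmt1 and Ctcf, made up much of a further list of 35. In that list 11 were highest in WT replicate 3 and 13 were lowest in WT replicate 2. Trim28 was highest in WT replicate 3 and lowest in WT replicate 2. Dnmt1 was highest in WT replicate 3, and Ctcf was lowest there.

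Summed markers of 4 other cell types also had WT replicate 2 lowest and WT replicate 3 highest among the WT libraries, but their members did not all follow, and sums are given here for WT replicates 1 to 3. Macrophage markers (7 of 7 tested) summed to 346, 244 and 397 CPM in WT and to between 201 and 216 CPM in TG. Of these, 4 were highest of all libraries in WT replicate 3, while Ptprc and Adgre1 were the lowest of the WT libraries there. Oviduct markers (2 of 4 tested) summed to 28.3, 24.2 and 48.9 CPM. Ovgp1 set the high sum in WT replicate 3, where Krt7 was instead lowest. Adipocyte markers (3 of 4 tested) summed to 19, 15.3 and 32.1 CPM in WT. In TG replicates 1 to 3 they summed to 24.1, 156 and 26.5 CPM, and 0 of 3 were highest of all libraries in WT replicate 3. Markers of small-follicle granulosa (5 of 5 tested) summed to 1058, 955 and 1081 CPM, and 1 of 5, Amh, was highest of all libraries in WT replicate 3. Erythrocyte markers (5 of 5 tested) summed to 134, 119 and 132 CPM in WT and to between 194 and 216 CPM in TG. Of them 3 passed edgeR's test and were higher in TG, the globin genes Hbb-bs (adjusted p 0.00660), Hba-a1 (0.00214) and Hba-a2 (0.00417), of which the last 2 are near-identical copies whose reads may be split. Granulosa markers summed to 5593, 6264 and 6974 CPM, with WT replicate 1 lowest. Theca markers (7 of 7 tested) summed to 16519, 17635 and 15302 CPM and endothelial markers (6 of 6 tested) to 591, 714 and 513 CPM. Of the WT libraries, replicate 2 had the highest sum of both, but not every member followed. Cyp11a1, the most abundant theca marker at 7782 FPKM, and Lhcgr were highest in replicate 2. The theca genes Cyp17a1 (217, 175 and 243 FPKM) and Insl3 (16.1, 13.35 and 26.7 FPKM) were instead lowest there and highest in replicate 3. Hhip was also highest in replicate 3, and Aldh1a1, Ptch1 and the endothelial gene Vwf in replicate 1. The part of these cell types in the result was not tested. Across 13867 genes the log2 ratio of WT replicate 3 to WT replicate 2 had a Spearman correlation of 0.28 with transcript GC content, described across genes, which are not independent. The median ratio was 1.12 in the tenth of genes with the highest GC and 0.929 in the lowest. The 10 genes had a median GC of 49.8% (50.5% over all genes), and the part of GC in their ratio was not tested.

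**Figure D3:**
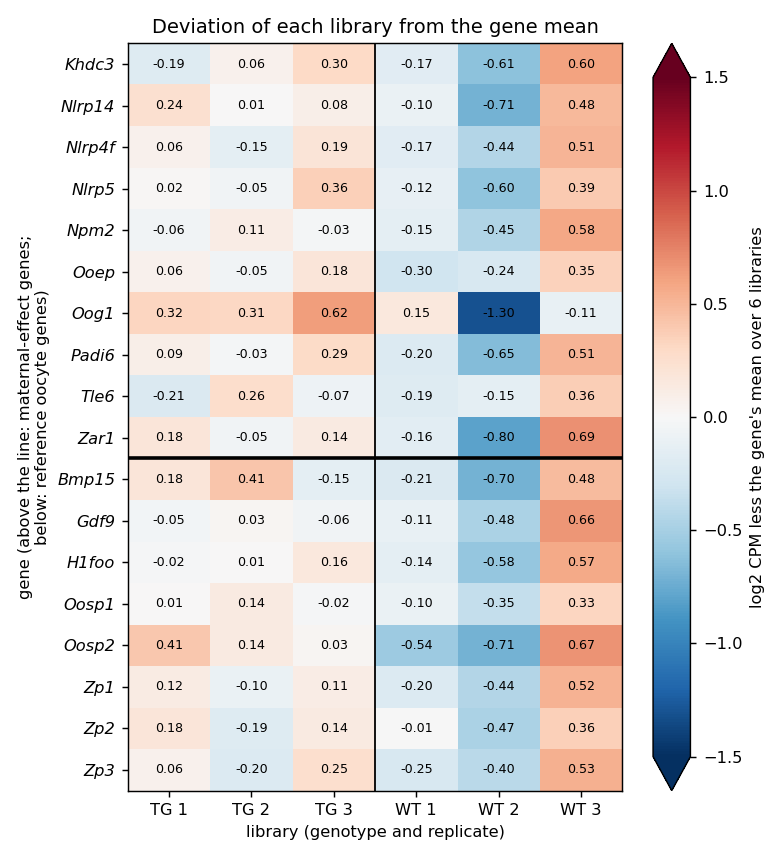
Colour and printed value give log2 CPM of a library less the gene's mean over 6 libraries, for the 10 maternal-effect genes (top) and 8 reference oocyte genes (bottom). The WT replicate 2 column is below 0 in every row, and the WT replicate 3 column is above 0 in every row except Oog1 at -0.11.

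The genes were also expressed relative to the reference oocyte genes (log2 CPM of a gene less the mean log2 CPM of the 8). The SD between animals, pooled over TG and WT, became smaller for 10 of 10 genes. The median of their pooled SDs was 0.41 for log2 CPM and 0.18 for the relative level. For Zar1 the SD went from 0.53 to 0.18 and for Npm2 from 0.38 to 0.09. The reduction was smallest for Tle6, from 0.28 to 0.27. For Oog1 the SD went from 0.56 to 0.45. On this scale Npm2 measured -0.75, -0.51 and -0.67 in TG and -0.54, -0.52 and -0.52 in WT. The 3 WT animals, which had differed by 2.05-fold in CPM, were thus nearly level for Npm2 on this scale, with an SD of 0.009. The TG animals were not brought closer for Npm2, with an SD of 0.13. Nor were they for Khdc3, Tle6, Oog1 and Nlrp5, with TG SDs of 0.27, 0.28, 0.19 and 0.22 on this scale. The smaller pooled SD therefore does not hold for each genotype alone.

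The genotypes were then compared on the relative scale by exact permutation of the 6 libraries (20 arrangements, two-sided, smallest possible p = 0.1). Differences, TG less WT, lay between -0.15 for Tle6 and 0.71 for Oog1, p was between 0.3 and 1 in this exact test, and the lowest adjusted p over the 10 genes was 0.857. The groups overlapped for 10 of 10 genes. Oog1 measured -1.66, -1.59 and -1.30 in TG and -1.52, -2.66 and -2.50 in WT. WT replicate 1 thus lay among the TG libraries, and the other 2 WT libraries lay below them. Tle6 measured 1.67, 2.23 and 1.87 in TG and 2.0, 2.36 and 1.84 in WT.

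The direction of the genotype difference depended on which WT animals entered the comparison. Without WT replicate 3 the 10 log2 fold changes were above 0 in 10 of 10 genes, with a median of 0.45 and a range of 0.18 to 0.82. Without WT replicate 1 they were above 0 in 4 of 10, with a median of -0.02 and a range of -0.15 to 1.01. Without WT replicate 2 they were above 0 in 2 of 10, Ooep and Oog1, with a median of -0.11 and a range of -0.25 to 0.40. The median was 0.49 when WT replicate 3 and TG replicate 2 were dropped together. The lowest adjusted p in edgeR among the 10 genes was 0.486 without WT replicate 3, 0.352 without both libraries, 0.861 without WT replicate 1 and 0.9998 without WT replicate 2, so 0 of 10 passed in each.

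**Figure D4:**
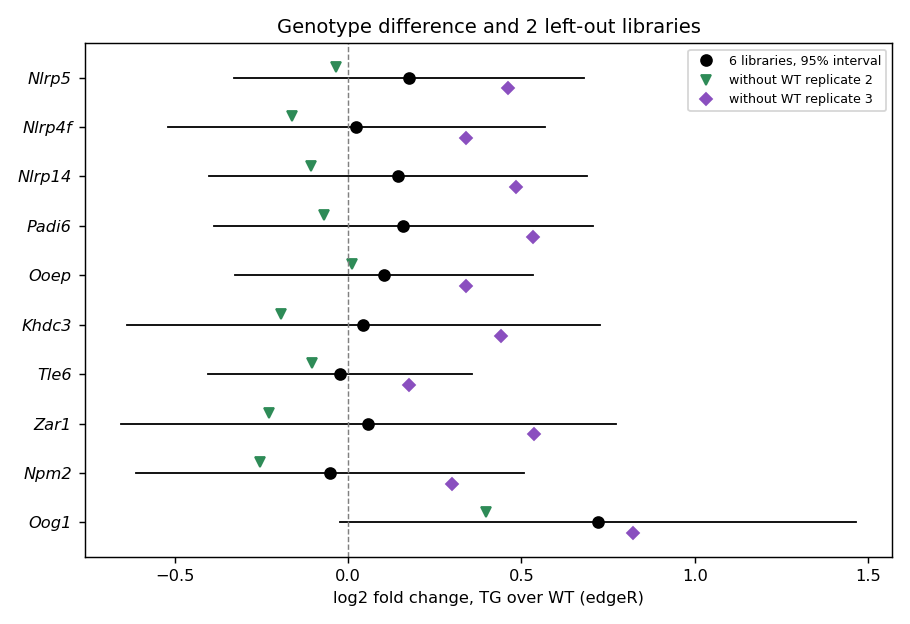
Log2 fold change of each gene, TG over WT, with its 95% interval from 6 libraries (black), and the value without WT replicate 2 (green) or without WT replicate 3 (purple). All 10 intervals include 0, and the values without WT replicate 3 lie to the right of those without WT replicate 2 in each gene.

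Across libraries the genes followed each other to differing degrees, given here as a description over 6 libraries that share their depth and tissue makeup. The Pearson correlation of log2 CPM with the mean of the other 9 genes was 0.99 for Padi6, 0.97 for Zar1, 0.97 for Nlrp5, 0.95 for Nlrp14, 0.94 for Khdc3, 0.94 for Nlrp4f, 0.88 for Npm2 and 0.85 for Ooep. It was 0.61 for Oog1 and 0.55 for Tle6. The genes outside the group most like its mean log2 CPM were Ptpn23 (Pearson correlation 0.998), Myoc (0.994), Khsrp (0.993), Dynap (0.989), Nobox (0.986), Wnk4 (0.985), Fbxw28 (0.985), Nckap5l (0.985), Wasf1 (0.984) and H1foo (0.983), out of 13450 genes with a mean of at least 1 CPM. Of these 10, Nobox, a transcription factor of the oocyte, Fbxw28 and the linker histone gene H1foo are in the oocyte lists, which supplied 33 of the genes ranked. With 6 libraries 252 genes (1.87%) had a correlation above 0.9.

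Paralogues of the group were tested in the same fit. Of the oocyte NLRP genes outside the group 8 were tested and edgeR called 0. Those with the smallest p were Nlrp4b, 0.46 higher on the log2 scale (SE 0.23), Nlrp9a at 0.57 (SE 0.34), Nlrp4g at -0.27 (SE 0.31) and Nlrp9b at -0.17 (SE 0.30). For Nlrp4b the groups did not overlap (8.25% of all tested genes, and 3.21% with TG higher). Their list median was 0.11, and 8 of 8 were lowest in WT replicate 2 (19.5% of all tested genes). Of the 8, 4 were highest in WT replicate 3 (21.7%), and for 4 the TG libraries lay inside the WT range (26.4%). The KH-domain relatives Khdc1b, Khdc1a, Dppa5a and Khdc1c had fitted log2 differences of 0.23, 0.37, 0.49 and 0.17, with 0 of 4 called. Their levels were 7.78, 1.71, 3.15 and 1.72 FPKM. For Dppa5a the groups did not overlap, beside the same 8.25% of all tested genes.

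Relatives that somatic cells also use were in part far more abundant than the oocyte gene. Npm1, the nucleolar phosphoprotein of all cells, measured 509 FPKM and Npm3 51.2 FPKM, against 9.01 FPKM for Npm2, and their log2 fold changes were 0.19 (95% interval -0.02 to 0.40) and 0.17 (95% interval -0.04 to 0.39). Aes, a short Groucho relative, measured 879 FPKM, while Tle2, Tle3, Tle1 and Tle4 measured 28.1, 20.2, 17.9 and 3.13 FPKM beside 24.9 FPKM for Tle6. For the deiminases the order was the other way, with Padi2 at 1.43 FPKM and Padi1, Padi3 and Padi4 at 0.14 FPKM or less, against 23.0 FPKM for Padi6. In edgeR 0 of the 8 tested paralogues of these 3 families passed.

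Of the other maternal-effect genes 35 were tested and 0 were called, with a list median of 0.03. The smallest p-values in that list belonged to Tet3, a 5-methylcytosine dioxygenase, with a fitted log2 difference of 0.19 (SE 0.10), and Brwd1 at 0.13 (SE 0.09). Next came Ythdf3, an m6A reader, at 0.11 (SE 0.08) and Setdb1, a histone H3 lysine methyltransferase, at 0.10 (SE 0.08). For Setdb1 the groups also did not overlap, with TG higher (3.21% of all tested genes). Dppa3, which protects maternal DNA methylation in the zygote, measured 10.2, 7.87 and 8.34 CPM in TG and 6.68, 5.80 and 11.7 CPM in WT. Btg4, needed for clearance of maternal mRNA, measured 3.72, 5.0 and 4.90 CPM in TG and 3.29, 2.52 and 6.17 CPM in WT. Both repeat the order of the WT libraries seen in the group, with replicate 2 lowest and replicate 3 highest, and were named after their values were seen.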

How the data were processed

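Total RNA of 6 ovaries was read on the BGISEQ-500 platform, according to the labels. Bowtie2, RSEM 1.3.1, DESeq2 1.4.5 and build mm10 are listed, without roles, in the submitters' processing notes. Strandedness and annotation are not given in the sources used here. The deposited table holds estimated counts per gene, per the file headers, with 8.50% to 9.12% of values per library not whole. Its second set of columns was taken as the authors' FPKM: count over value and length gave 95.0% to 95.3% of the library totals in long, single-transcript genes, before any correction of length for fragment size. The authors' group averages were not used.

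Rounded counts went into edgeR 4.0.16 under R 4.3.3 (TMM factors, filterByExpr with its limits of 10 counts, as CPM at the median library size in at least 3 libraries, and 15 in total both required, quasi-likelihood test, Benjamini-Hochberg over 14124 genes, threshold 0.05), with genotype as the sole factor. CPM use effective library sizes. The common biological coefficient of variation was 12.5%. SE is the log2 fold change over the square root of F. Log-CPM for correlations used a prior count of 2. Sequences and coordinates came from RefSeq (GRCm38.p6) and GENCODE M21.

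The members and gene lists were chosen with earlier results of these data known. Named were all 10 genes, up to 4 per list with the smallest p, and the 10 genes most like the group mean; other named genes were chosen after their values were seen. As alternatives, composition factors by RLE, by upper quartile or none were used, with 2 other count filters, the replicate number as a block, left-out libraries, DESeq2 1.42.0, limma-voom, and limma-trend (limma 3.58.1) on log2(FPKM + 1) and log2(FPKM + 0.1) where a gene reached 1 FPKM in 3 libraries.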

Additional observations from a re-analysis of the deposited data

How the results depend on the processing

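Precision was limited by 3 animals per genotype and by low counts for Oog1 and Khdc3. The count of members called was 0 in each of the 18 alternatives, with a lowest adjusted p of 0.352, while the count over all genes ran from 119 to 204. Leaving out libraries moved the members' median log2 fold change from -0.11 (without WT replicate 2) to 0.49 (without TG replicate 2 and WT replicate 3), with 0.45 without WT replicate 3. Of 180 member values under alternatives, 24 changed sign. Over left-out libraries the values ran from -0.035 to 0.54 for Nlrp5, -0.16 to 0.43 for Nlrp4f, -0.11 to 0.54 for Nlrp14, -0.071 to 0.60 for Padi6, -0.017 to 0.39 for Ooep, -0.19 to 0.44 for Khdc3, -0.17 to 0.18 for Tle6, -0.23 to 0.60 for Zar1 and -0.25 to 0.30 for Npm2, while Oog1 kept its sign (0.40 to 1.01). Npm2 also changed sign with limma-voom (0.022), log2(FPKM + 1) (0.0050) and log2(FPKM + 0.1) (0.011). With the reference oocyte level as a covariate, an alternative chosen after seeing the data, Nlrp4f had -0.040, Khdc3 -0.013 and the members a median of 0.03. In TG libraries alone 4 of 10 genes kept their rank by FPKM, and in WT libraries alone 10 did. The cause of these shifts was not tested. The median difference relative to the reference genes was 0.02, and between -0.05 and 0.08 under its alternatives.

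With the replicate number as a block, edgeR called 0 of the 10 genes and 159 over all genes, the members' median was 0.14 and Npm2 had 0.00022. The labels do not say that a number marks a shared litter or day, and deviations of same-numbered libraries correlated at 0.23, 0.080 and 0.094 across genes, each the best match of its library.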
